A study of Mus musculus with 89 samples.

Results

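The exocyst subunits Exoc1, Exoc2, Exoc3, Exoc4, Exoc5, Exoc6, Exoc6b, Exoc7 and Exoc8 were taken by gene symbol from RNA-seq tables of mouse brain. All 9 symbols were present in each of the 3 tables, among 16133 genes in any of them. The first table held 14964 genes in 17 Klotho libraries: α-Klotho knockout mice (Klko, n = 4) and wildtype controls (WT-y, n = 4), both 2 months old, and Klotho heterozygous mice (Klhet, n = 5) with their wildtype controls (WT-o, n = 4), both 9 months old. The others held 13662 genes in 34 choroid plexus and 14440 genes in 38 hippocampus libraries of aged male wildtype mice. These mice had received sham injections (sham), young serum (YS) or young serum depleted of extracellular vesicles (YDS), at 100 µL per injection and 1 injection each 3 days for 25 days. There were 8 sham, 12 YS and 14 YDS libraries of choroid plexus and 10 sham, 14 YS and 14 YDS libraries of hippocampus. The arms were read from the deposited column names, since the sample labels give the tissue and the animal number but no arm. The labels number the Klotho samples within a group without stating that each came from a separate mouse, so p-values measure the spread between these samples.

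The exocyst is a tethering complex that holds secretory and recycling vesicles at the plasma membrane before SNARE proteins fuse them. It is built from a pair of subcomplexes, Exoc1 to Exoc4 and Exoc5 to Exoc8. In brain it is known for membrane addition during neurite growth and for the delivery of glutamate receptors, and in epithelia, such as the choroid plexus that lines the ventricles and secretes cerebrospinal fluid, for traffic to the basolateral membrane and the primary cilium. Exoc1 and Exoc7 bind phosphoinositides of the plasma membrane, Exoc2 and Exoc8 bind the Ral GTPases, and the paralogs Exoc6 and Exoc6b bind Rab11 on recycling vesicles.

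The 9 genes span very different lengths of genome (GENCODE vM21, GRCm38, the assembly also called mm10). Exoc4 is the longest, at chr6:33249085-33973979 on the plus strand, 724.9 kb with 12.64 kb of merged exons. Exoc6b lies on the same chromosome at chr6:84618487-85069513 on the minus strand and spans 451.0 kb. Exoc2 (chr13:30813919-30974093, minus) spans 160.2 kb and Exoc6 (chr19:37550418-37684059, plus) spans 133.6 kb. Exoc5 (chr14:49004090-49066653, minus) spans 62.6 kb, Exoc1 (chr5:76529311-76570294, plus) 41.0 kb and Exoc3 (chr13:74169488-74208732, minus) 39.2 kb. Exoc7 (chr11:116288001-116307233, minus) spans 19.2 kb, and the merged exons of Exoc8 (chr8:124893108-124897705, minus) fill its whole span of 4598 bases. Of the exon bases of Exoc5, 528 are shared with Ap5m1 on the opposite strand, and of those of Exoc7, 293 are shared with the opposite-strand transcript Gm26730. The strand setting of the counting is not given in the sources used here, so reads in these stretches cannot be assigned with certainty.

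Because subunits varied together between libraries, their promoters were compared as RefSeq gives them (GRCm38.p6, 250 bases before to 50 bases after the start). Those of the 3 subunits that were lower in Klko (Exoc4, Exoc6b and Exoc8) and of Exoc7, the steadiest subunit, are shown, each on its own coding strand from 5′ to 3′. Capitals mark matches, on either strand, to the GC box GGGCGG, the ETS core CCGGAAG or the NRF1 motif (GCGCA, any base, then GCGC). The windows are chr6:33248878-33249177 (plus) for Exoc4, chr6:85069464-85069763 (minus) for Exoc6b, chr8:124897656-124897955 (minus) for Exoc8 and chr11:116306685-116306984 (minus) for Exoc7.
Exoc4: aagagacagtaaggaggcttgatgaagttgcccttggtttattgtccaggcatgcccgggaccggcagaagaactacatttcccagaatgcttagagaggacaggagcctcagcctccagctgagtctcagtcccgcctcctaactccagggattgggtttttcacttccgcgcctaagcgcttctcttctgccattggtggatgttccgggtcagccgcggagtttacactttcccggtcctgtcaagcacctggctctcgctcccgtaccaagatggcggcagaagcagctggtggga
Exoc6b: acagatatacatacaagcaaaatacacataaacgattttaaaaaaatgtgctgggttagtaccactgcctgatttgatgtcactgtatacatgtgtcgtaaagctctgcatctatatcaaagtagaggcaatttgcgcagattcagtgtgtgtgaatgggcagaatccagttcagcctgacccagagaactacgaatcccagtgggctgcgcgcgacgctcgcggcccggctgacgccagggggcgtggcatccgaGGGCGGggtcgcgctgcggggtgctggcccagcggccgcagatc
Exoc8: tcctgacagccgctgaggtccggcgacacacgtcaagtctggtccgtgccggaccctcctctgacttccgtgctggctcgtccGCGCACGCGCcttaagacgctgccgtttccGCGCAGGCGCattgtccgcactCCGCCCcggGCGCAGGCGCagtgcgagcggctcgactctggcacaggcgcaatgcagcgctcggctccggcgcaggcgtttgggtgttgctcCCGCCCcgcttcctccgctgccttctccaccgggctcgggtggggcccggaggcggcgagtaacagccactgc
Exoc7: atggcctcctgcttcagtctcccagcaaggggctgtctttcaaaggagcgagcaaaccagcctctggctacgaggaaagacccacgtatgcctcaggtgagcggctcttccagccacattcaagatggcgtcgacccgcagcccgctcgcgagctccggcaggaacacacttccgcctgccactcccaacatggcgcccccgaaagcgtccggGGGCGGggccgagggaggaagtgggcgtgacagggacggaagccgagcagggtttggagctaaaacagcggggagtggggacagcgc
The 9 promoters had no TATAAA match, which 14.2% of 27025 RefSeq promoters had, and held between 13 and 39 CpG, where the median of all promoters was 7. A GC box was found in 6 of the 9 and in 35.9% of all promoters. The ETS core was found in 3 (Exoc1, Exoc3 and Exoc5) and in 9.12% of all, and the NRF1 motif in 2 (Exoc8 with 3 matches and Exoc6 with 1) and in 4.78% of all. The Exoc4 window held none of these 3 motifs but 2 CCAAT matches, a motif found in 37.9% of all promoters and in 2 of the 9. Of the other motifs searched on both strands, TGACG was found in 4 of the 9 and 21.0% of all, CACGTG in 1 and 7.24%, and CTCGCGAGA in none and 0.718%. No motif searched was found in all 9 subunits.

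Values are CPM, the counts-per-million of a gene in a library, scaled by the library total. The libraries held 26338890 to 40229041 counted reads in the Klotho table, 27165663 to 46836730 in choroid plexus and 23231524 to 40801000 in hippocampus. The lowest value of a subunit, 6.56 CPM of Exoc6 in a choroid plexus library, rested on 202 reads. Kl, the targeted gene, was at 2.90 to 23.3 CPM in Klko and 62.3 to 237 CPM in WT-y, and at 15.6 to 128 CPM in Klhet and 127 to 256 CPM in WT-o. The sources differ on the region of the Klotho samples. They are labelled brain, the extraction text of the labels names cortex, and the study describes hippocampi, so the region these values stand for is not settled. The 8 hippocampal neuron markers summed to 421.7 to 1030 CPM in these libraries against 927 to 1350 CPM in the infusion hippocampus. Markers of other tissues were uneven between these libraries. The 10 markers of choroid plexus epithelium summed to 422.1 to 10673 CPM, and 4 libraries held 23.1 to 49.1 CPM of Drd2, a striatal receptor. They were the second replicates of both wildtype groups and Klko replicates 1 and 4. Klko replicate 1 stood apart from the other 16 on the first principal component. In choroid plexus 12 of 34 libraries and in hippocampus 5 of 38 stood apart in the same way.

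Levels between subunits were compared as CPM per kb of merged exons, with each table taken alone. Merged exons join all annotated exons of a gene and run from 3.54 kb for Exoc6 to 17.99 kb for Exoc5. Which of them a tissue uses was not measured, and the order between subunits depends on these lengths. In hippocampus Exoc7 and Exoc3 led, at a median of 17.9 and 17.0 CPM per kb over 38 libraries. They did not separate, since Exoc7 was above Exoc3 in 22 of 38 libraries. Exoc6 (10.7), Exoc8 (10.2) and Exoc6b (9.98) formed the next tier, in which each was above its neighbour in only 20 of 38 libraries. Exoc2 (7.37), Exoc4 (6.37), Exoc1 (3.81) and Exoc5 (1.89) followed. Exoc4 was above Exoc1 in all 38 libraries and Exoc1 above Exoc5 in 36. In the 33 libraries without the 5 that stood apart the medians gave the same order, led by Exoc7 at 18.2 and closed by Exoc5 at 1.84 CPM per kb, and in the 5 Exoc3 (20.0) was above Exoc7 (15.0) in each library. The Klotho libraries gave nearly the same order, led by Exoc7 at a median of 14.9 CPM per kb and Exoc3 at 13.6. There Exoc5 (3.30) and Exoc1 (2.94) closed the order and Exoc5 was above Exoc1 in 12 of 17 libraries.

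Choroid plexus had another order. Exoc4, a core subunit, which stood behind 6 others in hippocampus, was at a median of 17.8 CPM per kb, beside Exoc3 at 17.6, and was above it in 15 of 34 libraries. This held for the 22 libraries that did not stand apart, with Exoc4 at 18.4 and Exoc3 at 18.0 CPM per kb and all 15 of these libraries among them. In the other 12 Exoc4 was at 7.36 CPM per kb, behind Exoc3 at 12.4 and Exoc7 at 12.0. Exoc7 was at 12.0 and Exoc2 at 6.65 CPM per kb. Exoc6b was the lowest subunit, at a median of 1.46 CPM per kb with a range of 0.706 to 2.62, where it was in the middle tier in hippocampus. It was the lowest both in the 12 (0.794) and in the 22 libraries (1.63). The ratio of the Rab11-binding paralogs, Exoc6b over Exoc6 per kb, was 0.342 at the median in choroid plexus (0.229 to 0.521, n = 34) and below 1 in all 34 libraries, with a median of 0.347 in the 12 and 0.342 in the 22. In hippocampus it was 0.962 at the median (0.585 to 1.24, n = 38) and below 1 in 22 of 38 libraries. Without the 5 libraries apart it was 0.990 (n = 33). The size of this ratio depends on the merged exons, 15.13 kb for Exoc6b and 3.54 kb for Exoc6. The tables were filtered separately and share no normalization, so these values stand side by side without a test. In bulk tissue, fewer cells of a type and less RNA per cell cannot be told apart. The 10 epithelium markers summed to 147281 to 267097 CPM in choroid plexus, and the 8 neuron markers of 10 that the table holds summed to 37.9 to 408.7 CPM.

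**Figure D1:**
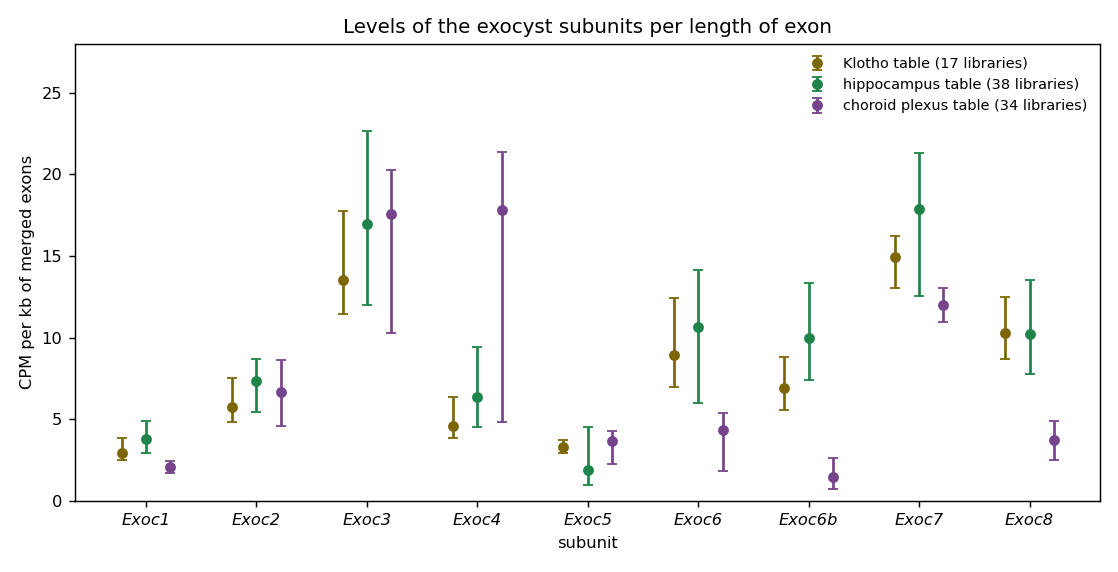
Level of each subunit as CPM per kb of merged exons (y axis). Points are medians over the 17 Klotho, 38 hippocampus and 34 choroid plexus libraries and bars run from the lowest to the highest library. In choroid plexus Exoc4 has the widest range, with medians of 7.36 in the 12 libraries apart and 18.4 in the other 22 around its pooled 17.8, and Exoc6b is lowest at 1.46.

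Klko was compared with WT-y to ask how a lack of α-Klotho changes the brain transcriptome. Of the 9 subunits, 3 were lower in Klko, Exoc6b, Exoc8 and Exoc4, and none was higher, by limma on log2(CPM + 0.5) with adjustment over 14964 genes. Over all genes, 6.44% were called lower and 4.83% higher. All 9 fitted differences were below 0, as were 53.2% of all genes, and the median difference of the 9 was -0.23 on the log2 scale against -0.02 over all genes.

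Exoc6b, the paralog that recruits the complex to Rab11 vesicles, was at 84.2, 92.0, 85.2 and 84.3 CPM in Klko replicates 1 to 4. In WT-y replicates 1 to 4 it was at 133.5, 89.7, 129.1 and 122.8 CPM. WT-y replicate 2 lay inside the Klko range and the other 3 WT-y libraries lay above it, so the groups overlapped. The log2 difference was -0.44 ± 0.10 (SE), a fall of 26.3% (limma, adjusted p = 0.0168).

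Exoc8, which binds the Ral GTPases, was at 39.9, 44.8, 47.3 and 46.2 CPM in Klko and at 54.7, 46.6, 57.5 and 54.9 CPM in WT-y. Again only WT-y replicate 2 fell within the Klko values. The difference was -0.26 ± 0.078 (limma, adjusted p = 0.0422). Exoc4, a core subunit of the first subcomplex, was at 52.7, 54.9, 48.3 and 55.2 CPM in Klko and at 80.1, 50.7, 69.6 and 70.0 CPM in WT-y. Its difference was -0.34 ± 0.11 (limma, adjusted p = 0.0478), close to the threshold of 0.05.

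Exoc3, the partner of Exoc4, was at 81.8, 77.8, 68.8 and 80.7 CPM in Klko and 103.1, 75.7, 106.5 and 100.0 CPM in WT-y, and missed the threshold (-0.31 ± 0.098, limma adjusted p = 0.052). Exoc1, a phosphoinositide-binding subunit, ranged from 30.1 to 34.1 CPM in Klko and from 32.9 to 40.9 CPM in WT-y (-0.23 ± 0.086, adjusted p = 0.0908 by limma). The other 4 did not pass either, with fitted differences between -0.07 for Exoc5 and -0.19 for Exoc2 and Exoc6 and limma adjusted p from 0.296 to 0.618. Exoc7 ranged from 57.0 to 68.9 CPM in Klko and from 65.2 to 69.4 CPM in WT-y. No subunit separated the groups without overlap, which 6.65% of all genes did in the lower and 5.6% in the higher direction. By an exact permutation test (two-sided, 4 against 4, smallest possible p = 0.0286) the lowest p were 0.0571 for Exoc6b and for Exoc8, and no p held after adjustment over 27 tests (0.268).

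WT-y replicate 2 decided much of this comparison. It was the lowest WT-y library for 7 of the subunits, all but Exoc5 and Exoc7, and one of the 4 libraries with high Drd2 (36.7 CPM). Without it 7 subunits were called lower, all but Exoc5 and Exoc7, led by Exoc6b (-0.57, limma adjusted p = 0.000178) and Exoc4 (-0.47, adjusted p = 0.000633), and calls rose over all genes too, with 15.3% called lower. Without all 4 high-Drd2 libraries 6 were called lower, beside 13.7% of all genes. Without WT-y replicate 1 or without WT-y replicate 3 none was called (1.99% and 1.97% of genes were lower), and Exoc6b was then at limma adjusted p = 0.0605 and 0.0608. Without Klko replicates 1, 2, 3 or 4, WT-y replicate 4, Klhet replicates 1 or 2, or WT-o replicates 3 or 4, 1 was called. Of all genes, 3.27%, 5.73%, 3.29% and 5.3% were called lower without Klko replicates 1 to 4. The share was 5.27% and 5.35% without Klhet replicates 1 or 2, and 5.86% and 5.63% without WT-o replicates 3 or 4. Fitting only Klko and WT-y called no subunit and 20 genes in all (0.0802% lower), with the same fitted differences. Removing each library's trend with exon length called none beside 3.74% of genes lower, and there Exoc5 turned from -0.07 to 0.14 (limma adjusted p = 0.236). The 8 striatal markers summed to 286 to 2482 CPM in Klko and 220 to 1371 CPM in WT-y, and the 10 epithelium markers to 494 to 6788 CPM and 3371 to 10673 CPM. No marker of these lists was at 0 in a group, and their part in the difference was not tested beyond leaving these libraries out.

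**Figure D2:**
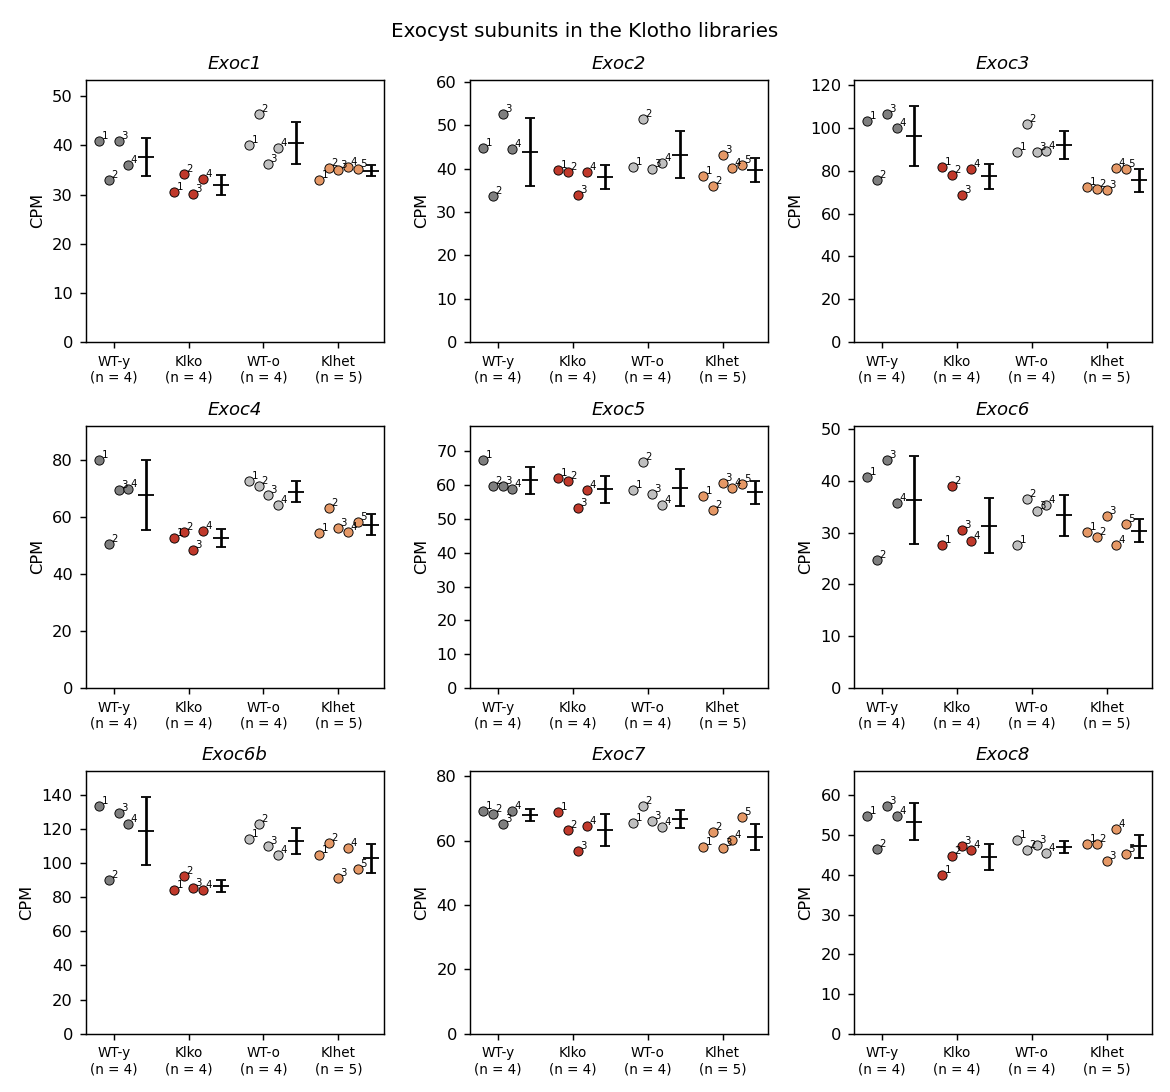
CPM of each subunit in the 17 Klotho libraries (y axis) by group (x axis). Points are libraries with their replicate number, and the line and bar at the right of a group are its mean and SD. WT-y replicate 2 lies with the Klko libraries for Exoc4 (50.7 CPM) and Exoc6b (89.7 CPM).

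Klhet mice were compared with WT-o to ask the same of a partial loss at 9 months. No subunit and no gene of 14964 was called by limma (0.0% of genes), edgeR called none and DESeq2 called 6 genes, none of them a subunit. At an unadjusted p under 0.05, 3 subunits were lower and none higher, where 7.5% of all genes were lower and 3.8% higher. The fitted differences were below 0 for 8 of 9 subunits, as for 63.3% of all genes. The count at that unadjusted p depended on the setting. With each library's length trend removed 1 subunit was lower, where 9.52% of genes passed in either direction. Without WT-o replicate 2 it was 2 (5.2% of genes), and with the replicate block 4 (7.37%).

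The 3 subunits lower in the fit of all groups separated Klhet and WT-o without overlap. Of all genes, 4.56% did so in the lower and 2.16% in the higher direction. Exoc3 was at 72.6, 71.4, 71.1, 81.4 and 80.8 CPM in Klhet replicates 1 to 5 and at 88.9, 101.8, 88.6 and 89.2 CPM in WT-o replicates 1 to 4 (-0.29 ± 0.093, limma adjusted p = 0.406). Exoc4 was at 54.3, 63.2, 56.1, 54.6 and 58.2 CPM in Klhet and at 72.7, 70.8, 67.8 and 64.4 CPM in WT-o (-0.27 ± 0.10, limma adjusted p = 0.406). Exoc1 was at 33.0, 35.4, 35.1, 35.7 and 35.3 CPM in Klhet and at 40.0, 46.4, 36.2 and 39.6 CPM in WT-o (-0.21 ± 0.082, limma adjusted p = 0.411). Every Klhet library of these 3 first-subcomplex genes was below every WT-o library. The exact permutation p (two-sided, 5 against 4) was 0.00794 for Exoc3 and for Exoc1, the smallest this design allows, and 0.0159 for Exoc4. After adjustment over 27 tests they were 0.107, 0.107 and 0.143.

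Exoc8 did not share this. It was at 43.5 to 51.4 CPM in Klhet and 45.4 to 48.7 CPM in WT-o, a log2 difference of 0.00 ± 0.074 in limma (p = 0.969). The Klko difference of Exoc8 was lower than its Klhet difference by 0.26 on the log2 scale, but the test of the difference between them did not hold after adjustment (limma p = 0.0259, adjusted p = 0.503). For Exoc6b the difference between the effects was -0.30 (p = 0.0501, adjusted p = 0.564 by limma). No subunit was called in that contrast, nor any gene by limma (0.0%) or edgeR, while DESeq2 called 48 genes without a subunit. Exoc8 alone passed at an unadjusted p under 0.05, as 8.87% of all genes did, and genotype and age change together in it. Between the wildtype groups, WT-o against WT-y, 0.0468% of genes were called and no subunit. The lowest p there was that of Exoc8, lower in WT-o by 0.18 (limma adjusted p = 0.575).

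The genes that work with the exocyst were followed as 4 lists. For Klko against WT-y the fit of all Klotho groups called 6.44% of all genes lower and 4.83% higher. List members were not followed under the alternatives, in which a fit of only Klko and WT-y called 20 genes in all. Among 20 GTPases that act on the exocyst and their regulators, 2 were lower in Klko than in WT-y, and none was higher. They were Ralgapa1 (76.1 ± 3.04 against 102.4 ± 13.9 CPM, SD, n = 4 and 4, log2 difference -0.42, limma adjusted p = 0.0121) and Ralgapb (106.0 ± 10.3 against 134.2 ± 5.03 CPM, -0.34, limma adjusted p = 0.018), which together form the complex that switches off the Ral GTPases. Of 4 paralogs outside the complex, Tnfaip2 was higher in Klko (4.67 ± 0.632 against 2.82 ± 0.446 CPM, n = 4 and 4, 0.64, limma adjusted p = 0.0366).

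Of 20 genes of the fusion machinery 4 were lower and none higher, where 6.44% of all genes were lower and 4.83% higher. Syt1, the calcium sensor of transmitter release, was at 804 ± 98.1 CPM in Klko and 1104 ± 184 CPM in WT-y (n = 4 and 4, limma adjusted p = 0.0297). Cadps, which primes dense-core vesicles, fell by 0.42 on the log2 scale (limma adjusted p = 0.017), Snap29 by 0.30 (0.0189) and Unc13a, a priming factor of synaptic vesicles, by 0.23 (0.0469). Of 18 genes of other tethering complexes 3 were lower, Cog6, Cog4 and Vps18, with log2 differences of -0.36, -0.34 and -0.28. The median differences of these lists were 0.18 for the 4 paralogs, -0.04 for the GTPases, -0.15 for the fusion genes and -0.17 for the other tethers, beside -0.23 for the exocyst.

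Of these 62 genes, 19 of the 20 fusion genes were measured in choroid plexus and 3 of the 4 paralogs in hippocampus. Over all genes limma called 0.0468% for WT-o against WT-y and 0.0346% for hippocampus YS against sham. It called 0.0% for Klhet against WT-o and for the other infusion comparisons. None of the 62 genes, where measured, passed in any of these comparisons. The closest were Rab3ip, the Rab8 exchange factor, in hippocampus (57.1 ± 5.70 CPM in 14 YDS against 44.5 ± 5.51 CPM in 10 sham libraries, limma adjusted p = 0.0561), Arf6, a GTPase that binds Exoc5 (44.6 ± 9.37 CPM in 14 YS against 55.1 ± 5.74 CPM in 10 sham hippocampi, limma adjusted p = 0.0742), Vps53, a subunit of the GARP tether (120.9 ± 13.1 CPM in 14 YS against 101.6 ± 9.29 CPM in 10 sham hippocampi, limma adjusted p = 0.0745), and the paralog Exoc3l4 (2.94 ± 0.665 CPM in WT-o against 1.30 ± 0.260 CPM in WT-y, n = 4 and 4, limma adjusted p = 0.0793).

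In choroid plexus the infusion arms were compared to ask what young serum and its vesicles change at the barrier between blood and cerebrospinal fluid. No subunit was called between any 2 arms, nor any gene by limma (0.0% in each comparison), and no subunit reached an unadjusted p under 0.05, which 2.11% of genes did for YS against sham, 7.51% for YS against YDS and 1.43% for YDS against sham. By edgeR 400 genes and by DESeq2 563 genes were called for YS against YDS, without a subunit among them. Of 19 measured fusion genes, 6 were higher in YS than in YDS at an unadjusted limma p under 0.05 and 0 lower. The smallest p was that of Cplx1 (4.55 ± 5.90 against 0.927 ± 0.446 CPM, SD, limma p = 0.000203, adjusted p = 0.302). Cell type markers were also higher in YS at that unadjusted p. They were 7 of 8 measured neuron, 7 of 7 oligodendrocyte, 5 of 6 astrocyte, 5 of 6 microglia and 2 of 6 endothelium markers, but 0 of 10 epithelium markers. The neuron markers summed to 40.95 to 408.7 CPM in YS and 37.9 to 71.24 CPM in YDS. Their part in the fusion genes was not tested. The subunit levels of the arms lay over each other. Exoc4 ranged from 67.5 to 270 CPM with a median of 227 in sham, from 64.8 to 259 with a median of 217 in YS and from 61.2 to 259 with a median of 227 in YDS. Exoc7 ranged from 49.5 to 56.7 CPM in sham, 48.5 to 56.9 in YS and 47.8 to 54.4 in YDS. The lowest p was that of Exoc8, at a median of 16.2 CPM in YS and 18.3 CPM in YDS (-0.15 ± 0.10, limma p = 0.165). With a term for animals up to C418 or from C419, a limit chosen after the values were seen, it was -0.16 (limma p = 0.0439, adjusted p = 0.443).

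The wide ranges followed the animal number. The samples are labelled C401 to C440 by animal. Those up to C418 (n = 13) and from C419 (n = 21) differed, with the limit chosen after the values were seen, so the values are given as a description without a test. Median Exoc4 was 97.8 CPM in the lower numbers and 231.6 CPM in the higher. Median Exoc6b was 12.1 and 24.7 CPM, and median Exoc6 8.53 and 16.3 CPM. These 3 genes were the lowest relative to the higher numbers. Their mean log2 differences were -1.18 for Exoc4, -0.88 for Exoc6b and -0.81 for Exoc6, where the median of all genes was -0.09. Exoc3 (-0.49), Exoc5 (-0.46), Exoc8 (-0.37) and Exoc2 (-0.35) were lower to a smaller degree, and Exoc1 (0.02) and Exoc7 (0.01) were level. In 12 of the 13 lower-numbered libraries Exoc3, Exoc4, Exoc5 and Exoc6b were each below every one of the 21 others. The exception was the sham library C410, with 261.7 CPM of Exoc4 and 22.6 CPM of Exoc6b. Sham C409 (192.7 CPM of Exoc4) and YDS C411 (158.9 CPM) lay between.

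All 3 arms were present on both sides, with 4 sham, 4 YS and 5 YDS libraries up to C418 and 4, 8 and 9 from C419, so the arms were compared within them too. No subunit was called in either set or with the side of the limit as a term. Beside the subunits, 234630 CPM of epithelium markers at the median in the lower numbers stood against 184166 CPM in the higher. This sum was mostly Ttr (201248 and 124241 CPM), the transthyretin gene. The sum of the other 9, mostly Enpp2 (28010 and 50924 CPM), went the other way, at 33608 and 59980 CPM. Among these 9, Otx2 (412.2 and 398.9 CPM) and Kcnj13 (959.6 and 908.4 CPM) went with Ttr and the rest did not. Beside them stood 106.2 against 125.8 CPM of 6 microglia markers. Over all genes the difference followed both the genomic span and the length of merged exons, which were not separated. With the genes split into 5 equal bins by span, its median was 0.35 in the bin with the shortest span, which holds Exoc8. It was -0.50 in the bin with the longest, which holds Exoc2, Exoc4, Exoc6 and Exoc6b. Exoc8 (-0.37) was lower, as 25.5% of genes in its bin were. Exoc2 (-0.35) has a longer span than Exoc6 (-0.81) and was lower by less. Within the longest bin by span 85.0% of genes were lower. With 5 bins by merged exons, the median was 0.35 in the shortest and -0.47 in the longest. That longest bin holds Exoc1, Exoc4, Exoc5 and Exoc6b, of which Exoc1 was level. Exoc6 lies in the second shortest bin by merged exons, with a median of 0.05. The part of the epithelium markers, of the gene span and of the exon length in the lower subunit values was not tested.

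**Figure D3:**
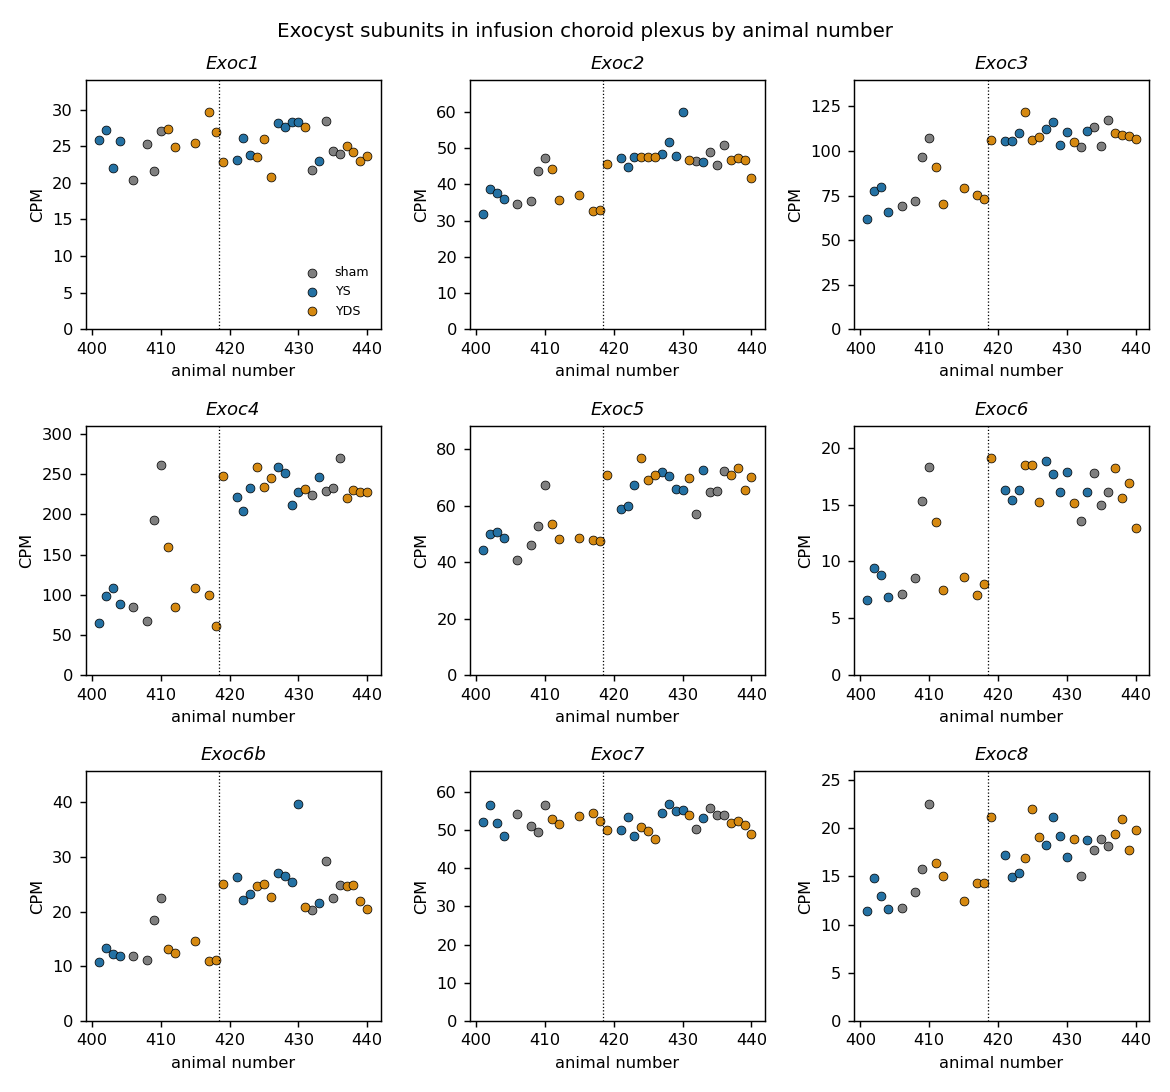
CPM of each subunit in the 34 infusion choroid plexus libraries (y axis) against animal number (x axis), coloured by arm, with a dotted line between C418 and C419. Exoc4 has a median of 97.8 CPM left of the line and 231.6 CPM right of it, while Exoc7 is level at 52.5 and 52.3 CPM.

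The hippocampi of these mice showed no such step. Median Exoc4 was 81.7 CPM in 17 libraries up to H418 and 76.5 CPM in 21 from H419, and the mean log2 difference of a subunit was between -0.03 for Exoc7 and 0.32 for Exoc5. Over mice with both tissues, no relation was detected between the deviations of a subunit in choroid plexus and in hippocampus. None of 18 correlations (9 subunits, in 11 mice of one choroid plexus set and 20 of the other) passed a permutation test after adjustment (lowest adjusted p 0.635). The highest r was 0.53 (rho 0.54, p = 0.0909) for Exoc4 over 11 mice and the lowest -0.52 for Exoc5 (rho -0.44, p = 0.0941).

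Between the arms in hippocampus no subunit was called. By limma 5 genes of 14440 were called higher in YS than in sham (0.0346%) and none in the other comparisons (0.0%), while 17.4% (YS against sham), 6.29% (YS against YDS) and 12.4% (YDS against sham) had an unadjusted p under 0.05. For these comparisons edgeR called 1, 0 and 0 genes and DESeq2 353, 1 and 8. Exoc4 had the smallest p of the subunits. It ranged from 56.8 to 80.5 CPM with a median of 75.6 in 10 sham libraries, from 63.2 to 119 with a median of 88.4 in 14 YS libraries and from 64.6 to 111 with a median of 82.7 in 14 YDS libraries. The sham libraries were tightly grouped and both serum arms were spread above and around them. YS against sham gave 0.27 ± 0.096 (limma p = 0.00759, adjusted p = 0.145), and YDS against sham gave 0.18 ± 0.096 (limma p = 0.0608). DESeq2 put the first past the threshold (adjusted p = 0.0479) and edgeR did not (0.12). YS and YDS did not differ detectably (0.08 ± 0.087, limma p = 0.341). Without the 5 libraries that stood apart Exoc4 was at 0.30 ± 0.11 for YS against sham (limma p = 0.00702, adjusted p = 0.112). Exoc3 (0.25) and Exoc6b (0.22) were then also under an unadjusted p of 0.05, as 18.1% of all genes were, and no subunit was called while 173 genes were.

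Exoc5, a subunit of the second subcomplex that Arf6 binds, had the widest spread of any in hippocampus on the log2 scale. It ranged from 19.1 to 79.3 CPM with a median of 49.95 in sham, from 25.4 to 81.0 with a median of 35.3 in YS and from 17.3 to 70.6 with a median of 31.2 in YDS. YDS against sham gave -0.51 ± 0.21 (limma p = 0.0207, adjusted p = 0.357). The libraries on the far side of the first principal component (sham H405, H406 and H407, YS H427 and YDS H424) held 75.3, 79.3, 77.3, 71.6 and 70.6 CPM, and 3 of them were sham. Without these 5 the difference was -0.29 ± 0.19 (limma p = 0.147). High values were not confined to them, since YS H401 held 81.0 CPM, YS H429 59.1 CPM and YDS H439 58.8 CPM. In the 5 libraries the 10 neuron markers summed to 12949 to 13642 CPM and the 6 astrocyte markers to 2044 to 2527 CPM. These lay inside the ranges of the other 33 (12427 to 15166 and 1877 to 4653 CPM), with lower medians (13134 against 13694 and 2267 against 2705 CPM). H405, H406, H407 and H424 had the fewest counted reads of the hippocampus libraries (23231524 to 24859418), while H427 had 35852642. The part of depth was not tested. The other 7 subunits gave unadjusted p of 0.0563 (Exoc6b, YS against sham, limma) and above.

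**Figure D4:**
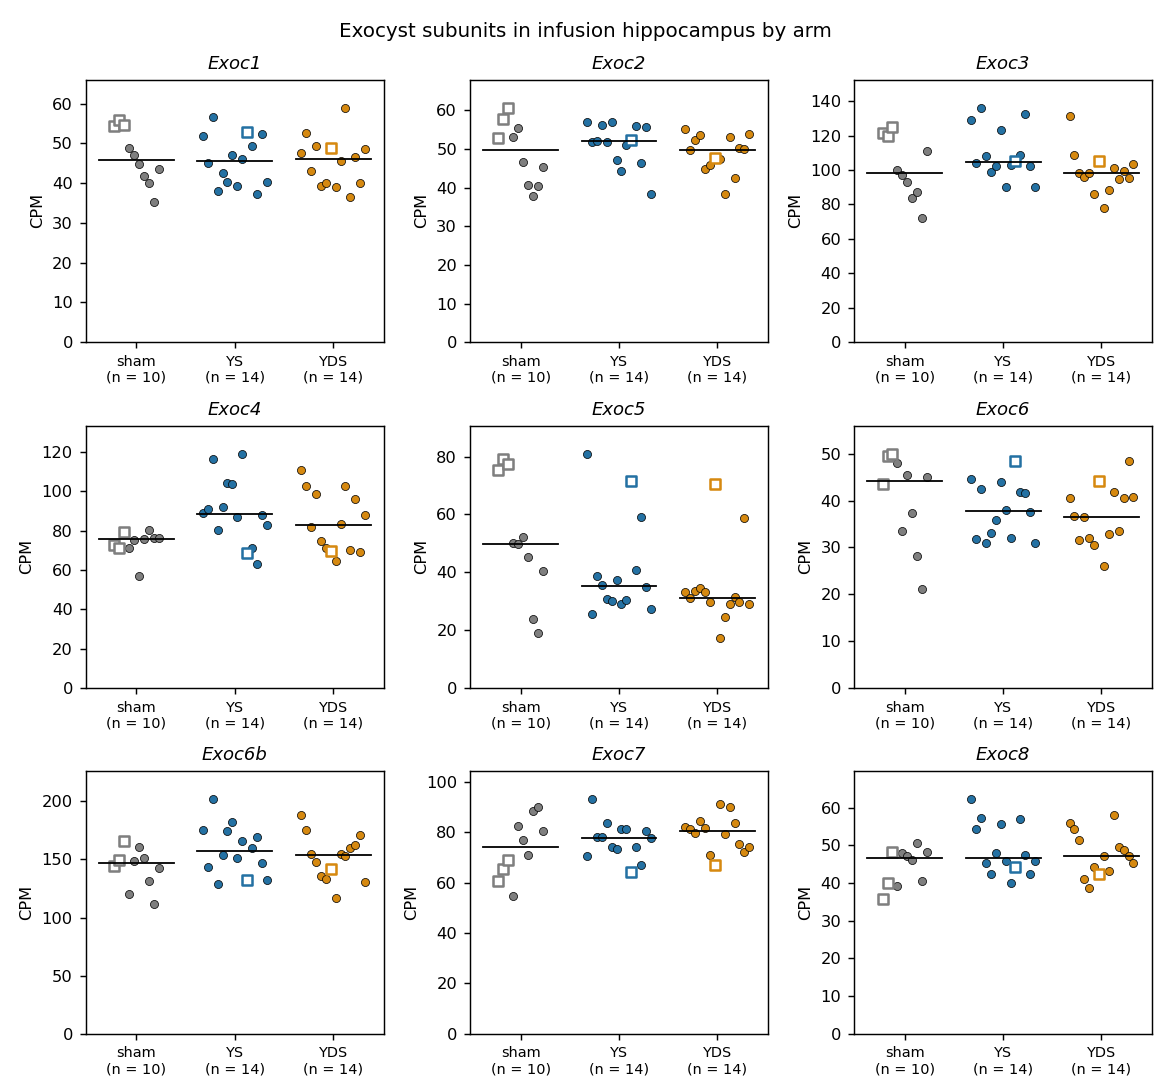
CPM of each subunit in the 38 infusion hippocampus libraries (y axis) by arm (x axis), ordered by animal number within an arm. Circles and squares are libraries, open squares the 5 that stand apart on the first principal component, and the line is the median. The open squares are at 70.6 to 79.3 CPM of Exoc5, where the arm medians are 49.95, 35.3 and 31.2 CPM.

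Covariation between subunits was measured as Pearson's r and Spearman's rho of log2(CPM + 0.5) with arm or group means removed. Since libraries of a table fell into separate clusters, r was taken within sets: 12 and 22 choroid plexus libraries, 33 hippocampus libraries and 16 Klotho libraries. In each set 36 pairs were tested by permutation (100000 resamples, two-sided), with adjustment over all 144. Of these, 62 passed, all positive but 2 in hippocampus. The median r of the 36 pairs was 0.71, 0.38, 0.35 and 0.57 in the 4 sets, where the median over all gene pairs was 0.04, 0.08, 0.01 and 0.03. With TMM factors, which rescale each library by its typical gene, it was 0.50, 0.12, 0.33 and 0.46.

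In the 12 choroid plexus libraries, all from animals up to C418, 7 subunits moved as a block and 19 pairs passed. The closest pair was Exoc3 with Exoc6 (r = 0.94, rho = 0.87, adjusted permutation p = 0.00054, r = 0.89 without the 2 libraries farthest from the median). Exoc1 and Exoc7, the phosphoinositide-binding subunits, stood outside the block, with a median r to the other 8 of -0.10 and -0.09. The marker score of the choroid plexus epithelium moved with 6 of the block, between r = 0.81 for Exoc6b and 0.95 for Exoc4 (adjusted permutation p from 0.0024 to 0.0199 over 288 tests). That score is the mean of log2 values, in which Ttr weighs no more than the other 9. Ttr itself was at 163015 CPM in YDS C411 and 235998 CPM in sham C408, which held 158.9 and 67.5 CPM of Exoc4. The hippocampal neuron score moved with the same 6 (r from 0.74 to 0.94, adjusted permutation p from 0.0024 to 0.0437). Only 3 of its 8 markers were measured in choroid plexus, and they summed to a median of 95.93 CPM in these 12 libraries. The 8 measured neuron markers summed to a median of 53.11 CPM there. Whether this score follows neurons in choroid plexus was not tested. With the epithelium and neuron scores regressed out, 1 pair of 36 passed and the median r was 0.16.

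In the other 22 choroid plexus libraries 7 pairs passed. Exoc2 with Exoc6b (r = 0.83, rho = 0.72, adjusted permutation p = 0.00036), Exoc1 with Exoc7 (r = 0.80, rho = 0.81, 0.00036) and Exoc4 with Exoc5 (r = 0.79, rho = 0.75, 0.000411) were the closest, and their partners differed from each other. Without the 2 farthest libraries they were at 0.64, 0.75 and 0.74. Exoc1 and Exoc7, apart from the block in the first set, were thus a pair here. Exoc1 and Exoc6b also moved with marker scores of other cells, Exoc1 with oligodendrocytes (r = 0.68, adjusted permutation p = 0.00759) and Exoc6b with microglia (r = 0.75, 0.00843). The epithelium score ran against Exoc2 (r = -0.61), Exoc1 (-0.59) and Exoc7 (-0.55) here, with adjusted permutation p from 0.0313 to 0.0499. With the epithelium and neuron scores regressed out 7 pairs passed and the median r was 0.33.

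In the 33 hippocampus libraries 17 pairs passed in the positive direction and 2 in the negative. Exoc5 with Exoc6 was the closest pair (r = 0.76, rho = 0.67, adjusted permutation p = 0.00036), at 0.88 within 7 sham, 0.71 within 13 YS and 0.71 within 13 YDS libraries. Exoc7 ran against both, with r = -0.63 to Exoc5 (rho = -0.54, adjusted permutation p = 0.00126) and -0.59 to Exoc6 (rho = -0.50, 0.002), negative within each arm. YDS H425 held the least Exoc5 (17.3 CPM) and 91.4 CPM of Exoc7, and sham H408 the least Exoc7 (54.8 CPM) and 50.3 CPM of Exoc5. Exoc4 kept to itself apart from Exoc1 (r = 0.54, rho = 0.50, adjusted permutation p = 0.00612). That pair rested on the serum arms, with r = 0.44 in 13 YS and 0.87 in 13 YDS libraries but -0.36 in 7 sham libraries, a difference that was not tested. The neuron score moved with Exoc2 (r = 0.65), Exoc5 (0.63), Exoc3 (0.51) and Exoc6 (0.47), and the astrocyte score against Exoc8 (-0.64), with adjusted permutation p from 0.0024 to 0.0409. For Exoc6 the relation rested on few libraries (rho 0.25, r = 0.28 without the 2 farthest), and the hippocampal neuron score ran against Exoc2 (r = -0.47, adjusted permutation p = 0.0437).

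In the 16 Klotho libraries 17 pairs passed, led by Exoc2 with Exoc3 (r = 0.86, rho = 0.70, adjusted permutation p = 0.000411), Exoc1 with Exoc2 (r = 0.83, rho = 0.77, 0.0006) and Exoc4 with Exoc6b (r = 0.82, rho = 0.62, 0.002). The first subcomplex had the higher values, with a median r of 0.76 over 6 pairs against 0.26 over the 10 pairs within Exoc5 to Exoc8, and 0.57 over the 20 pairs across. In hippocampus the medians were 0.48, 0.30 and 0.32. In the 12 and 22 choroid plexus libraries the pairs within the first subcomplex had a median r of 0.38 and 0.30. Those within Exoc5 to Exoc8 had 0.60 and 0.38, and those across 0.71 and 0.39. These differences were not tested. Several Klotho pairs rested on few libraries. Without the 2 farthest, 12 of the 17 stayed above 0.3, Exoc1 with Exoc2 went to 0.69, and Exoc4 with Exoc6 went from 0.59 to 0.03. The microglia score ran against 5 subunits, from -0.72 for Exoc4 to -0.84 for Exoc6b (adjusted permutation p from 0.00494 to 0.0373). The hippocampal neuron score moved with Exoc4, Exoc6b and Exoc6 (r from 0.71 to 0.76) and the neuron score with Exoc7 (r = 0.78), with adjusted permutation p from 0.00843 to 0.0313.

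**Figure D5:**
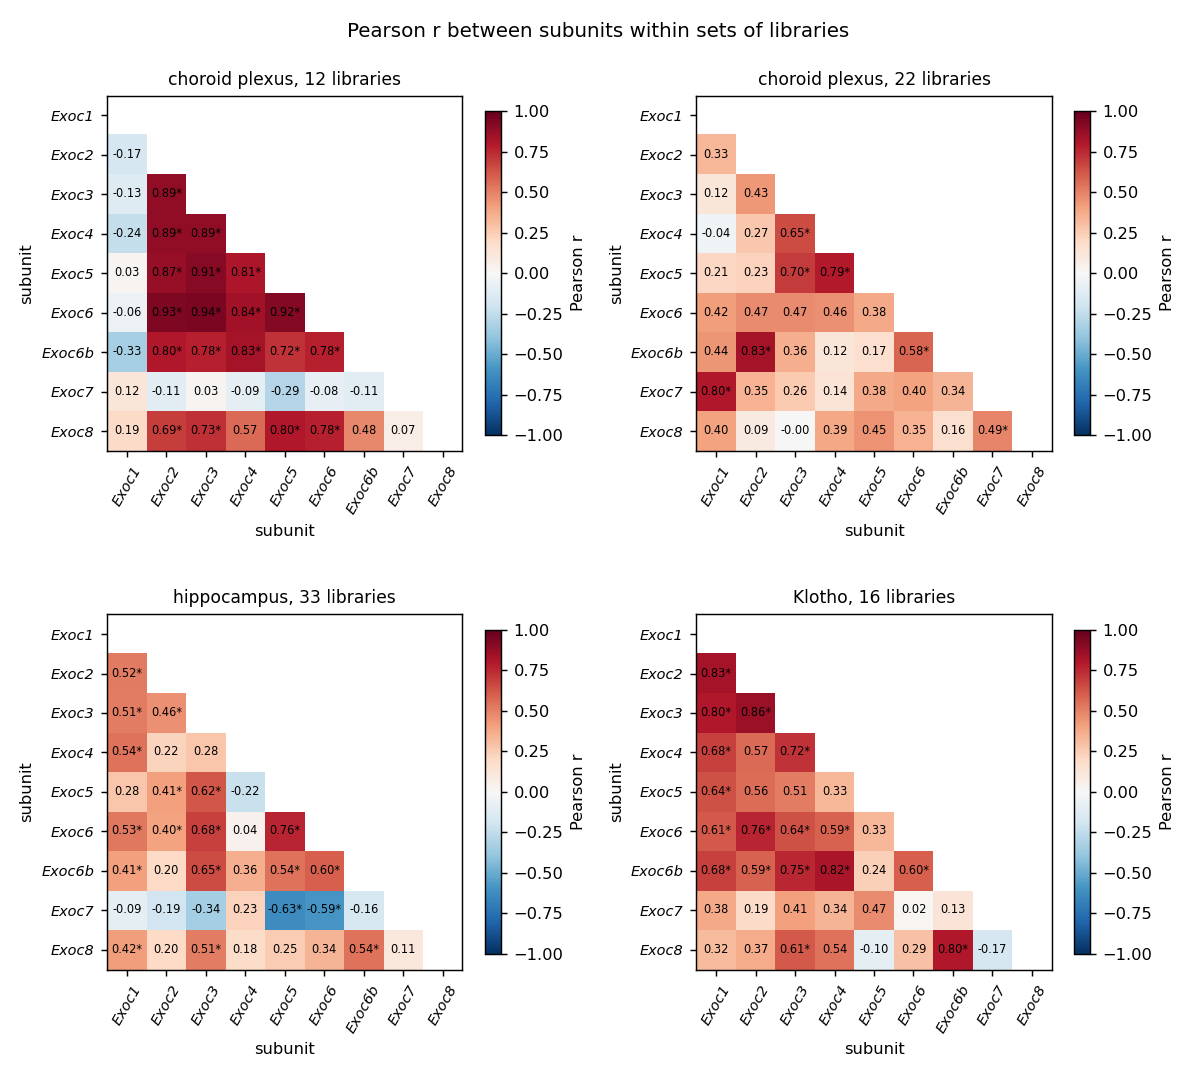
Pearson r between each pair of the 9 subunits (axes) within 4 sets of libraries, with arm or group means removed, on a colour scale from -1 to 1. A star marks an adjusted permutation p under 0.05 over 144 pairs. In the 12 choroid plexus libraries Exoc1 and Exoc7 stand outside a block of high r, and in hippocampus Exoc7 is negative to Exoc5 (-0.63) and Exoc6 (-0.59).

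Exoc7 was also the steadiest subunit. Its residual SD within a set was 0.058, 0.062, 0.15 and 0.068 on the log2 scale in the 12, 22, 33 and 16 libraries, and 1.0%, 0.7%, 10.7% and 2.3% of all genes had a smaller one. Exoc5 was among the steadier genes in choroid plexus and in the Klotho libraries (10.0% to 13.1% of genes below it) and varied most in hippocampus, with an SD of 0.44 and 78.1% of genes below it. Exoc4 varied most in the 12 choroid plexus libraries, at 0.48, with 97.0% of genes below it.

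The genes whose values ran closest to the mean of the 9 subunits were named from each infusion table. In the 22 choroid plexus libraries these were Mpp1 (r = 0.907), Vti1a (0.896), Snx2 (0.895), Pdxdc1 (0.89) and Seh1l (0.889), where the median of 13327 genes was 0.30. In the 33 hippocampus libraries they were Scn2a (r = 0.901), Spin1 (0.893), Stxbp5 (0.89), Napb (0.886) and Aak1 (0.885), with a median of -0.00 over 14015 genes. Stxbp5 binds syntaxin and Napb is a SNAP that helps to recycle SNARE complexes. None of the 50 closest genes of one tissue was among the 50 of the other.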

How the data were processed

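RNA-seq of 89 mouse libraries was read from 3 deposited tables. Reads had been mapped to mm10 by Subread and summed over genes by featureCounts, and the authors deposited CPM that edgeR gave from each library total, without further scaling factors, after leaving out low genes by a rule not given in the sources used here. The deposited values came out as whole reads for 100.0% of values in every library (within 0.05 reads), so reads and depth were recovered. The authors' own fold changes, p-values and gene marks were not used, and no column of sample values was left unmapped.

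Of 14967 Klotho genes, 3 with a repeated symbol were left out, and 23, 19 and 21 symbols turned into dates (Klotho, choroid plexus, hippocampus) were restored. Differences were fitted by limma 3.58.1 (R 4.3.3, trend) on log2(CPM + 0.5) with all groups of a table in 1 fit, two-sided, with Benjamini-Hochberg adjustment over all genes of the table. A fold change on this scale understates that of low genes. Calls are adjusted p under 0.05. Each subunit was also tested between Klotho groups by an exact permutation test (Python 3.11.15, scipy 1.17.1). Correlations used 100000 permutations. They had been planned over all libraries of a table and were taken within sets split at the largest gap of the first principal component, computed without the subunits, because libraries clustered. Gene lengths came from GENCODE vM21 and promoters from RefSeq. The fit and the correlations were tested on simulated data.

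Alternatives were pseudocounts of 0.1 and 1, a mean CPM of at least 1, TMM and RLE factors, edgeR 4.0.16 and DESeq2 1.42.0 on recovered reads, removal of each library's trend with exon length (loess, span 0.3), marker scores as covariates, only the groups compared, a replicate block, and each Klotho library left out. Subunits were always named, members of the partner lists where they passed (otherwise the 2 with the smallest p were considered and the closest named), and the 5 genes most alike in each infusion table. Members and lists were chosen with earlier results of these data known.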

Additional observations from a re-analysis of the deposited data

Results flagged for a closer look

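In 54 groups of 4 to 10 libraries, the highest or lowest library of a subunit was compared with the others by Dixon's ratio, the gap to the nearest library over the range of the group. In 7 groups a library passed the 95% limit, where chance gives about 1 in 20 groups.

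In Klko, Exoc2 was at 34.01 CPM in replicate 3 and at 39.26 to 39.74 CPM in the other 3, and Exoc6b was at 92.04 CPM in replicate 2 and at 84.21 to 85.17 CPM in the others. In Klhet, Exoc1 was at 33.03 CPM in replicate 1 and at 35.1 to 35.65 CPM in the other 4. In WT-y, Exoc5 was at 67.49 CPM in replicate 1 and at 58.94 to 59.67 CPM in the others.

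WT-o replicate 2, with 49.11 CPM of Drd2 the highest of the 4 libraries with this striatal receptor, was high for 2 subunits, Exoc2 (51.51 CPM against 39.86 to 41.33 CPM) and Exoc3 (101.8 CPM against 88.64 to 89.15 CPM). In the hippocampus of sham mice, Exoc4 was at 56.79 CPM in H410 and at 71.24 to 80.53 CPM in the other 9.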

How the results depend on the processing

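The 3 subunits called in Klko against WT-y were the result that moved most. The count was 0 with each library's length trend removed, 0 with only both groups in the fit and between 0 and 7 with 1 library left out. It was 2 with TMM or RLE factors, beside 6.02% and 5.95% of all genes called lower. By edgeR or DESeq2 it was 4, where Exoc3 joined (DESeq2 adjusted p = 0.0196), beside 6.21% and 8.83% of genes called lower. Without the 4 high-Drd2 libraries, an alternative chosen after seeing the data, it was 6. Exoc6b was called in 24 of 28 alternatives (adjusted p from 0.000178 to 0.107), Exoc8 in 12 (0.00462 to 0.17) and Exoc4 in 7 (0.000633 to 0.246). Exoc5 turned to 0.14 on the log2 scale without the length trend. With the replicate number as a block, 1 subunit was called, beside 2.95% of genes called lower. The deviations of same-numbered Klko and WT-y libraries had r of -0.34, -0.48, -0.17 and -0.08, so the numbers were not read as pairs. No subunit was called in Klhet against WT-o, between both effects or in WT-o against WT-y under any alternative.

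DESeq2 called 1 subunit, Exoc4, in hippocampus YS against sham, among 353 genes it called in a table of 14440. For this comparison limma called 5 genes and edgeR 1, without a subunit. The adjusted p of Exoc4 ran from 0.0479 (DESeq2) to 0.318 over 12 alternatives. The 62 correlated pairs became 32 with the marker scores regressed out, 32 without the length trend and 43 with TMM factors, each of 144 pairs. With all libraries of a table pooled, an alternative chosen after seeing the data, 61 passed of fewer pairs, 36 in each of 3 tables. The causes were not tested. The lowest subunit value rested on 202 reads.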
